A study of Mus musculus with 37 samples.

Results

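The comparison set mammary glands of mice on 30% calorie restriction that also had running wheels (CR+EX, 9 arrays) against mammary glands of mice fed ad libitum without one (AL, 10 arrays). The 19 arrays were those whose diet regimen label was CR+EX or AL, out of 37 arrays in the series. The other arrays came from 9 mice under restriction alone (CR) and 9 ad libitum mice with a wheel (AL+EX). All animals were female C57BL/6 mice, 9 weeks old when they were randomized and followed for 6 weeks. The restricted diet supplied 70% of AL calories and the full allowance of the other nutrients. Total RNA came from the left and right thoracic glands of a mouse, pooled into 1 sample per animal, and was hybridised to 1 Affymetrix oligonucleotide array. The question was how the gland of a mouse with both interventions differed from the gland of a mouse with neither, and how much of that difference lay along the diet and how much along the wheel.

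Outside pregnancy and lactation the mammary gland is a fat pad of white adipocytes threaded by epithelial ducts, with fibroblasts, vessels, immune cells and, in thoracic glands, underlying muscle and lymph nodes close by. White fat makes fatty acids from glucose when food arrives and releases them between meals, and its cells, like nearly all cells, carry a circadian clock whose phase follows the time of feeding. In that clock BMAL1 and CLOCK drive their own repressors, the nuclear receptor NR1D1 represses genes with ROR elements, and the activator DBP and the repressor NFIL3 compete for the same D-box sites.

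The depositors had scaled the arrays to a trimmed mean signal between 500.165 and 500.23, and 9294 genes were tested on the log2(signal + 16) scale. The luminal keratins Krt8 and Krt18 and the adipocyte markers were measured well above 0 on all 19 arrays, and no marker of any cell type list was listed at 0 throughout. Markers of skeletal muscle were also strong, with a summed signal between 222922.6 and 471773.1 in CR+EX glands and between 143151.1 and 451895.6 in AL glands. B lymphocyte genes split the arrays into separate clusters, with 3 CR+EX and 4 AL arrays in the lymphocyte-rich one. The Gapdh 3′ probe set exceeded the 5′ one by over 2-fold, a sign of shorter RNA or cDNA, on 2 CR+EX and 3 AL arrays (below, the arrays with a high Gapdh ratio). The animal numbers in the titles fell into 4 runs that held 2, 3, 2 and 2 CR+EX arrays and 2, 3, 3 and 2 AL arrays. Within each run the numbers ran by group, so the place in a run and the group cannot be told apart. Every array of run 4 was lymphocyte-rich, so leaving out the lymphocyte-rich arrays also left out all of run 4. Every CR+EX and AL array of run 1 had a high Gapdh ratio. The labels give neither the hour of collection nor the hour of the last meal.

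In glands of CR+EX mice 58 of 9294 genes (0.624%) differed from AL glands at an adjusted p under 0.05, 30 of them higher (0.323%) and 28 lower (0.301%). The largest rises were in Igfals, Enpep, Nfil3, Gpnmb, Mgp and Clmp, each over 2-fold, and the largest falls in Ly6d, Nr1d1, Defb1, Ctse and Dbp. Of the 58, 43 differed by over 1.5-fold (315 genes of all tested, 3.39%, did) and 11 by over 2-fold. At an unadjusted p under 0.05 there were 1222 genes (13.1%), 558 higher and 664 lower. RNA came from whole glands, so fewer cells of a type and less RNA per cell cannot be told apart for any gene below. The balance of directions depended on the scaling, with 35 genes higher and 12 lower after median centring and 38 higher and 25 lower after quantile normalization.

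The number of genes called depended on which arrays entered. With the run of animal numbers as a block 347 genes (3.73%) passed, among them all 58. Without the lymphocyte-rich arrays 3 genes (0.0323%) passed, Nfil3, Dbp and Ly6d. Without the arrays with a high Gapdh ratio 18 genes (0.194%) passed, 17 of them among the 58. In both smaller sets all 58 had the direction seen over all arrays, with a median size of 89.0% and 99.5% of that difference. The 58 were called on arrays that include both sets, so these values describe them and test nothing further. Both sets also hold fewer animals. The first lacks all of run 4, and the second lacks every CR+EX and AL array of run 1. An exact permutation test of every gene on the 19 arrays called 31 genes (0.334%), 22 of them among the 58. Leaving out 1 array of the comparison at a time gave between 26 genes (without CR+EX replicate 6) and 105 genes (without CR+EX replicate 5), and 24 of the 58 passed in all 19 such fits. One array stood apart over many genes: CR+EX replicate 5 was the CR+EX gland nearest the AL side for 28 of the 58, among them Nfil3, Nr1d1, Dbp, Ly6d, Defb1, Ctse and Elovl6, against 0 to 8 genes for each of the others. It was neither lymphocyte-rich nor high in the Gapdh ratio. Without it all 58 still passed, with log2 differences of 1.45 for Nfil3, -2.15 for Nr1d1, -1.53 for Dbp, -2.26 for Ly6d, -2.08 for Defb1, -1.64 for Ctse and 0.93 for Elovl6. This array was picked by its place among these same genes. The larger differences without it follow largely from that choice and test nothing further. When the probe sets of a gene were averaged in place of taking the brightest, 16 of the 58 did not pass.

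**Figure D1:**
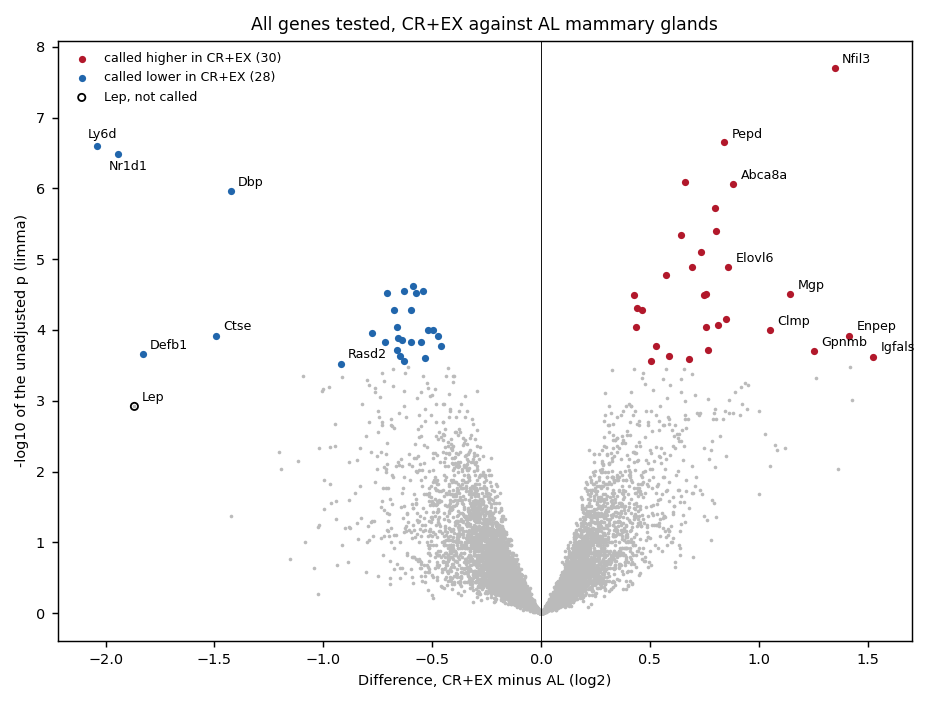
Each point is 1 of 9294 genes, with the log2 difference between CR+EX and AL glands on the x axis and the −log10 of the unadjusted limma p on the y axis, the 30 genes called higher in red and the 28 called lower in blue. Nfil3 has the smallest p among the rises and Ly6d and Nr1d1 among the falls, while Lep, with a difference of -1.87, lies below the called genes.

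Among genes of the circadian clock Nfil3 rose and Nr1d1 and Dbp fell, and Nfil3 had the smallest p-value of the whole table. Nfil3, the D-box repressor, had signals with a lowest value of 210.6, a median of 392.5 and a highest of 626.6 in CR+EX glands, against 85.0, 144.1 and 252.9 in AL glands. Of the 9 CR+EX glands all but replicate 5 lay above every AL gland. Nfil3 was 2.55-fold higher (log2 difference 1.35 ± 0.19, SE, adjusted p = 0.00019; exact two-sided permutation p = 2.2e-05). Nr1d1, the REV-ERB alpha receptor that represses ROR element genes, ran the other way, with 52.4, 176.5 and 734.8 in CR+EX glands against 620.4, 842.3 and 1234 in AL glands. The signal was below that of every AL gland in 8 of 9 CR+EX glands, and the other one, replicate 5 again, was within the AL range. Nr1d1 fell by 1.94 ± 0.32 on the log2 scale (3.85-fold, adjusted p = 0.00077; exact permutation p = 4.3e-05).

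Dbp, the D-box activator and a direct output of the clock, had 292.1, 623.2 and 1024.3 (lowest, median and highest signal) in CR+EX glands against 651.1, 1760.3 and 2565.6 in AL glands. The signal was below the AL range in 7 of 9 CR+EX glands. It fell by 1.43 ± 0.25 on the log2 scale (2.69-fold, adjusted p = 0.0014; exact permutation p = 0.00021). The transcript of the D-box activator was thus lower, and that of the D-box repressor higher, in the mean of the CR+EX group. All 3 genes passed in each of the 19 fits that left out 1 of the compared arrays, and Nr1d1 alone of the 3 missed the threshold once lymphocyte-rich arrays were left out (adjusted p = 0.084).

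Most other clock genes did not pass. Of 12 tested genes of the core loop 1 was called lower and none higher, 4 of the 12 had a positive difference, and the median was -0.20 on the log2 scale, against -0.03 over all genes and 4137 of 9294 genes positive. Of 6 output factors 1 was called in each direction and the median was -0.22 (-0.11 without the arrays with a high Gapdh ratio). Arntl, which encodes BMAL1, differed by 0.46 ± 0.18 (adjusted p = 0.24) and its partner gene Clock by -0.42 ± 0.17 (adjusted p = 0.27). The second of these values rests on the brightest probe set, and the other Clock probe set ran the opposite way. Cry1, a repressor of BMAL1 and CLOCK, differed by 0.65 ± 0.23 (adjusted p = 0.17), Per3 by -0.51 ± 0.20 (adjusted p = 0.25; 0.045 with the run as a block) and Nr1d2, the sister receptor of NR1D1, by -0.29 ± 0.17 (adjusted p = 0.48). Tef, a D-box activator like Dbp, differed by -0.31 ± 0.10 (adjusted p = 0.10; 0.041 with the run as a block), and Hlf, the remaining one, by -0.04 ± 0.11 (adjusted p = 0.90). The clock genes named in this paragraph lie outside the rule for named genes and were chosen after their values were seen.

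The promoter stretches below are shown because the called clock genes encode the proteins that read these elements. Each is the 250 bases before the start site, from RefSeq (GRCm38.p6), on the strand of the gene: Nfil3 at chr13:52981040-52981289, minus strand, and Per3 at chr4:151044666-151044915, minus strand. Capitals mark the ROR element core in Nfil3, written as its reverse complement TGACCT at position -12 from the start, and the D-box core TTATGTAA in Per3, at positions -205 and -158.
Nfil3: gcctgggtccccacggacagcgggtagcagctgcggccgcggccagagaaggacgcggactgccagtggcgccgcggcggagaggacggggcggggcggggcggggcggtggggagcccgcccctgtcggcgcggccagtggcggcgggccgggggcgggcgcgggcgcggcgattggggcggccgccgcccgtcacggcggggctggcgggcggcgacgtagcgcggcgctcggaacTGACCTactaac
Per3: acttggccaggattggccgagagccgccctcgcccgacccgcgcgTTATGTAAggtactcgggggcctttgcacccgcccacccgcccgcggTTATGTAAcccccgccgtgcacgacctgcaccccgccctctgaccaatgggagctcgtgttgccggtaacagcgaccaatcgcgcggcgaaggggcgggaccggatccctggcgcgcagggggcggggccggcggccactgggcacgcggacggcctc
Searched on both strands from 250 bases before to 50 bases after the start, the ROR core AGGTCA was found in 5 of the 17 clock list members with a promoter in the table (Arntl, Clock, Nfil3, Nr1d2 and Per1), against 18.1% of the 27025 genes in the table and 16.3% of its 32851 promoters. The D-box core TTATGTAA was found in 1 of the 17, Per3, against 1.11% of genes and 0.938% of promoters, and the E-box CACGTG in 5 (Bhlhe41, Ciart, Cry1, Per1 and Tef), against 8.09% and 7.15%. Neither Nr1d1 nor Dbp held any of the 3 in this window. A match describes letters and not a bound site.

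**Figure D2:**
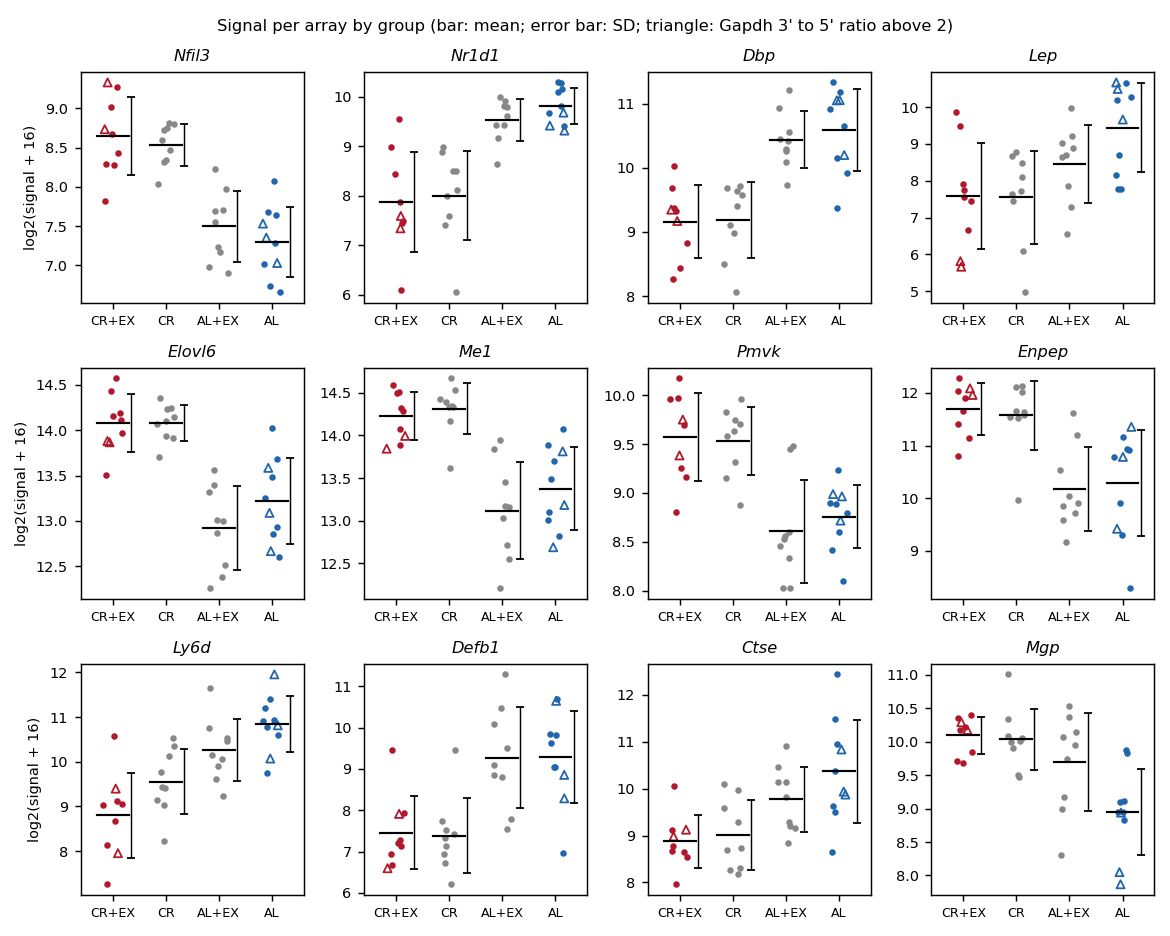
Signal of 12 genes on each array as log2(signal + 16), with the groups in the order CR+EX, CR, AL+EX and AL, the mean as a bar, the SD as an error bar and triangles for arrays with a high Gapdh ratio (above 2). For Nfil3, Nr1d1, Dbp, Elovl6, Me1, Pmvk, Enpep and Defb1 the CR+EX arrays lie level with the CR arrays and the AL+EX arrays level with the AL arrays.

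Of the genes that build fatty acids 2 rose in CR+EX glands, Elovl6 and Me1. Elovl6, which lengthens palmitate to stearate, had 11587.3, 17716.1 and 24330.1 (lowest, median and highest signal) in CR+EX glands against 6196.4, 9203.5 and 16707.3 in AL glands. Of the 9 CR+EX glands 5 exceeded every AL gland. Elovl6 rose 1.81-fold (log2 difference 0.86 ± 0.17, adjusted p = 0.0094). Me1, the malic enzyme that makes NADPH for the same pathway, had 14697, 19991.2 and 24737.1 in CR+EX glands against 6582.9, 10377.6 and 17244.6 in AL glands, again with 5 of 9 CR+EX glands above all AL glands. It rose 1.80-fold (0.85 ± 0.19, adjusted p = 0.023). Without the lymphocyte-rich arrays the difference was 0.59 for Elovl6 (adjusted p = 0.19) and 0.59 for Me1 (adjusted p = 0.2).

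Of 20 tested genes of fatty acid synthesis, 2 were called higher, none lower, 19 had a positive difference and the median was 0.35, beside 0.323% called higher and 44.5% positive over all genes. With the run as a block 5 were called higher, beside 1.99% of all genes. They were Acss2 (adjusted p = 0.032), Aacs (0.016) and Acacb, an acetyl-CoA carboxylase (0.042), with Elovl6 and Me1. Medians within the 4 runs were 0.19, 0.27, 0.47 and 0.46. Acly, which splits citrate into the acetyl-CoA used for synthesis, differed by 0.66 ± 0.19 (adjusted p = 0.093), Acss2, which makes acetyl-CoA from acetate, by 0.95 ± 0.27 (adjusted p = 0.091), and Aacs, which activates acetoacetate, by 0.89 ± 0.24 (adjusted p = 0.068). These 3 were named after their values were seen, as was Acacb, and the first 3 were near the threshold. The central enzymes downstream were not among them. Fasn, the fatty acid synthase, differed by 0.11 ± 0.18 (adjusted p = 0.85), and Scd1, the main desaturase, by -0.24 ± 0.24 (adjusted p = 0.74), with its other probe set of opposite sign. Fasn had a median of 26784.1 in CR+EX glands and 22982.5 in AL glands, and the AL range enclosed the CR+EX range.

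In the cholesterol pathway, Pmvk, the phosphomevalonate kinase, had 432.7, 810.0 and 1136.3 (lowest, median and highest signal) in CR+EX glands against 258.5, 442.2 and 585.1 in AL glands. All AL glands were exceeded by 7 of the 9 CR+EX glands. Pmvk rose 1.76-fold (0.81 ± 0.18, adjusted p = 0.027) and was the 1 called gene of 19 tested, of which 13 had a positive difference, with a median of 0.12 (0.07 without the lymphocyte-rich arrays). With the run as a block 4 of the 19 were called higher, beside 1.99% of all genes: Pmvk, Fdps, Cyp51 and Nsdhl. Fdps, which makes farnesyl diphosphate, had 646.8, 913.1 and 1887.7 in CR+EX glands against 303.1, 567.8 and 890.8 in AL glands but did not pass (0.86 ± 0.25, adjusted p = 0.093), and its other probe set had the opposite sign. Cyp51, the lanosterol demethylase, differed by 0.79 ± 0.23 (adjusted p = 0.092) and Nsdhl, which acts later in the pathway, by 0.42 ± 0.13 (adjusted p = 0.093). Both were named after their values were seen.

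Neighbouring lists of fuel metabolism had small differences, and their balance of signs varied. Of 8 genes of NADPH supply Me1 was the 1 called, 7 had a positive difference and the median was 0.24. Triglyceride assembly had no call in 10 genes, with 9 positive and a median of 0.15 (0.26 without the arrays with a high Gapdh ratio). The TCA cycle and pyruvate entry list had no call in 23 genes, 22 positive and a median of 0.15, and the respiratory chain list no call in 34 genes, 30 positive and a median of 0.13. Those shares stand beside 4137 of 9294 genes positive in the whole table, and the run 4 medians of the last 2 lists were -0.12 and -0.06. Fatty acid oxidation had no call in 19 genes, with 11 positive, 8 negative and a median of 0.05 (0.11 without the lymphocyte-rich arrays). Glycolysis and glucose entry had no call in 14 genes, with 8 positive, 6 negative and a median of 0.03.

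Among lipid handling genes, Abhd5, which encodes the co-activator of the adipose triglyceride lipase, had 1514.4, 1768.8 and 2808 (lowest, median and highest signal) in CR+EX glands against 906.8, 1204.7 and 1550.6 in AL glands. Of the 9 CR+EX glands 8 were above every AL gland. Abhd5 rose (0.59 ± 0.14, adjusted p = 0.041; 0.052 with probe sets averaged) and was the 1 called gene of 12 in the lipolysis and lipid droplet list, whose median was 0.07. Called genes outside the lists, named after their values were seen, included Hacl1, Acad11, Echdc1 and Lipg. Hacl1, a peroxisomal lyase of fatty acid alpha-oxidation, rose by 0.74 ± 0.14 (adjusted p = 0.0066), Acad11, an acyl-CoA dehydrogenase, by 0.64 ± 0.12 (adjusted p = 0.0043), and Echdc1, which removes the toxic side product ethylmalonyl-CoA, by 0.75 ± 0.16 (adjusted p = 0.013). Their medians were 1055.8, 4806.4 and 4002.4 in CR+EX glands against 584.4, 2682.5 and 2180.9 in AL glands, and the groups overlapped for each. Lipg, the endothelial lipase, rose by 0.69 ± 0.14 (adjusted p = 0.0094), though 1 of its 2 other probe sets had the opposite sign.

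Of the 5 falls over 2-fold, those of Ly6d, Defb1 and Ctse were in the epithelial defence list. Ly6d, a surface protein of epithelial and early B cells, had 137.5, 506.2 and 1508.9 (lowest, median and highest signal) in CR+EX glands against 841.8, 1846 and 3948.5 in AL glands. The signal was below that of every AL gland in each CR+EX gland but replicate 5. Ly6d fell by 2.04 ± 0.33 on the log2 scale (4.12-fold, adjusted p = 0.00077; exact permutation p = 7.6e-05). Defb1, a beta-defensin that kills microbes at epithelial surfaces, had 80.7, 131.9 and 691 in CR+EX glands against 109.9, 643.5 and 1648.6 in AL glands. The AL glands were spread widely, and 3 CR+EX glands were below all of them. Defb1 fell by 1.83 ± 0.45 (3.56-fold, adjusted p = 0.041; 0.062 with probe sets averaged) and passed in 7 of the 19 fits that left out 1 array.

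Ctse, an aspartic protease of endosomes in epithelial and antigen-presenting cells, had 233.4, 423.1 and 1050 in CR+EX glands against 386.6, 1134.5 and 5523 in AL glands. The groups overlapped, with a long upper tail in the AL glands. Ctse fell by 1.49 ± 0.35 (2.81-fold, adjusted p = 0.029), by -0.25 in run 4 and between -1.33 and -2.31 in the other runs. With the probe sets of Ctse averaged the difference was -0.87 and did not pass (adjusted p = 0.21). These 3 genes were the calls among 9 tested in the epithelial defence list, beside 0.301% called lower over all genes. This list, like the others, was chosen with earlier results of these data known, so the count describes these genes and tests nothing. The list median was -0.28, and -0.59 without the arrays with a high Gapdh ratio. In the 4 runs it was 0.26, -1.01, -0.49 and -0.25, so run 1 had the opposite sign. The median of -0.59 leaves out every CR+EX and AL array of run 1. With the run as a block Wfdc2, a secreted epithelial protein named after its values were seen, was called too. Ltf, the milk and tear iron binder lactoferrin in the same list, differed by 0.12 ± 0.31 (adjusted p = 0.91).

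Markers of the luminal epithelium, the inner cell layer of the ducts, also had negative differences, nearly all short of the threshold. Of 23 tested markers only Ly6d was called, 22 had a negative difference and the median was -0.56, and -0.95 without the lymphocyte-rich arrays. Over all genes 0.301% were called lower and 5157 of 9294 were negative. With the run as a block 5 markers were called lower, beside 1.74% of all genes. They were Ly6d, Cd24a (adjusted p = 0.0058), the protease inhibitor gene Spint1 (0.020), the tight junction gene Cldn4 (0.032) and Wfdc2 (0.039). The summed signal of the 23 markers had a lowest value of 13338.9, a median of 19336.4 and a highest of 29523.4 in CR+EX glands, against 9814.4, 34357.2 and 49403.9 in AL glands. The AL range enclosed the CR+EX range. Krt8, a keratin of luminal cells, differed by -0.83 ± 0.33 (adjusted p = 0.25), Krt18, its partner, by -0.45 ± 0.30 (adjusted p = 0.56) and Cd24a, a surface marker of epithelial cells, by -0.76 ± 0.21 (adjusted p = 0.068). These 3, Spint1, Cldn4 and Ltf were named after their values were seen. The list medians in the 4 runs were -0.64, -0.53, -1.20 and 0.20, so run 4 had the opposite sign. All run 4 arrays were lymphocyte-rich, so the median of -0.95 leaves out that run. Markers of the basal layer had a median of 0.08, and -0.03 without the lymphocyte-rich arrays, with no call in 13. The part of epithelial content in the falls of Ly6d, Defb1 and Ctse was not tested.

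Among the hormone genes of fat named here none passed. Lep, which encodes the satiety hormone leptin, had 34.7, 171.6 and 916.6 (lowest, median and highest signal) in CR+EX glands against 203.4, 978.7 and 1613.2 in AL glands. Below every AL gland were 6 of 9 CR+EX glands, and the other 3 lay within the AL range. Lep differed by -1.87 ± 0.54 and did not pass (adjusted p = 0.088; exact permutation p = 0.0083). Within the runs it differed by -4.43, 0.03, -2.72 and -0.86. It passed with the run as a block (adjusted p = 0.026) and without CR+EX replicate 5 (adjusted p = 0.033). Replicate 5 had the highest Lep signal of the CR+EX glands, so the second of these results follows largely from leaving it out. The arrays with a high Gapdh ratio include every CR+EX and AL array of run 1. Without them the difference was -0.99 (adjusted p = 0.55). Adipoq, which encodes adiponectin, had medians of 17837.5 in CR+EX glands and 17768.8 in AL glands and differed by 0.01 ± 0.15 (adjusted p = 0.98). Mest and Sfrp5, markers of fat expansion, differed by -0.17 ± 0.17 (adjusted p = 0.73) and 0.14 ± 0.29 (adjusted p = 0.89).

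Igfals encodes the acid-labile subunit that holds insulin-like growth factors in a large complex in blood. It had 317.5, 422.6 and 693.7 (lowest, median and highest signal) in CR+EX glands against 20.0, 167.9 and 492.1 in AL glands, and the AL glands were much more spread than the CR+EX glands. Igfals rose 2.88-fold (1.53 ± 0.38, adjusted p = 0.042), the largest rise of the comparison, and passed in 8 of the 19 fits that left out 1 array. Without the lymphocyte-rich arrays its difference was 1.04 and did not pass (adjusted p = 0.13). Igf1, the growth factor itself, had medians of 1275.9 in CR+EX glands and 811.6 in AL glands and did not pass (0.62 ± 0.20, adjusted p = 0.12; with the run as a block, adjusted p = 0.029). Igfals was the 1 called gene of 27 in the insulin and IGF list, whose median was 0.11 (0.03 without the lymphocyte-rich arrays). With the run as a block 4 of the 27 were called higher and 1 lower, beside 1.99% and 1.74% of all genes. Hcar2, the receptor by which the ketone body beta-hydroxybutyrate restrains lipolysis, had 368, 490.8 and 753.2 in CR+EX glands against 33.7, 239 and 488 in AL glands. All AL glands were exceeded by 5 of the 9 CR+EX glands. Hcar2 just missed the threshold (1.42 ± 0.36, adjusted p = 0.051; with the run as a block, adjusted p = 0.0021) and passed in 6 of the 19 fits that left out 1 array.

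Other large rises were those of Enpep, Mgp, Gpnmb and Clmp. Enpep, aminopeptidase A, which trims angiotensin II, had 1764.2, 3835.9 and 4947.2 (lowest, median and highest signal) in CR+EX glands against 295.8, 1746.4 and 2604.1 in AL glands, and rose 2.67-fold (1.42 ± 0.33, adjusted p = 0.029). Mgp, the matrix Gla protein that holds back calcification, had 801.6, 1144.8 and 1329.9 in CR+EX glands against 217.7, 476.9 and 924.3 in AL glands, and rose 2.21-fold (1.14 ± 0.24, adjusted p = 0.013). Above every AL gland lay 7 of 9 CR+EX glands for Enpep and 6 of 9 for Mgp. Gpnmb, a glycoprotein of lysosome-rich cells such as macrophages, had 145.9, 208.1 and 278.6 in CR+EX glands against 17.8, 89.5 and 151.9 in AL glands, and rose 2.38-fold (1.25 ± 0.30, adjusted p = 0.039). Of the 9 CR+EX glands 8 were above every AL gland. Clmp, an adhesion molecule found in fat, rose 2.07-fold (1.05 ± 0.24, adjusted p = 0.028; 0.052 with probe sets averaged). Without the lymphocyte-rich arrays the differences were 0.89 for Enpep, 1.01 for Mgp, 0.84 for Gpnmb and 0.85 for Clmp, and none of these passed.

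Further rises were smaller. Abca8a, a lipid transporter of the ABC family, had 1755.3, 2233.7 and 2805.4 in CR+EX glands against 652.4, 1250.9 and 1719.5 in AL glands, with no overlap, and rose 1.84-fold (0.88 ± 0.15, adjusted p = 0.0014). Pepd, the prolidase that frees proline from collagen fragments, had 3251.5, 3995.1 and 4962.2 in CR+EX glands against 1363.7, 2164.3 and 3990 in AL glands, and rose 1.79-fold (0.84 ± 0.13, adjusted p = 0.00077). The signal was above that of every AL gland in 5 of 9 CR+EX glands. Gpx8, an endoplasmic reticulum peroxidase, rose 1.74-fold (0.80 ± 0.14, adjusted p = 0.0022), and St3gal6, a sialyltransferase, rose 1.75-fold (0.80 ± 0.15, adjusted p = 0.0042). Gpx8 was the 1 called gene of 20 in the endoplasmic reticulum folding list and of 22 in the antioxidant list, whose medians were 0.03 and 0.00. Mrps22, a protein of the mitochondrial ribosome named after its values were seen, had 631.3, 692.7 and 930.6 in CR+EX glands against 473.6, 502.2 and 610.4 in AL glands. Its groups did not overlap, and it rose 1.38-fold (0.47 ± 0.10, adjusted p = 0.018; exact permutation p = 1.1e-05, the smallest that 92378 regroupings can give).

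Matrix and stromal lists gave few calls. Mgp was the 1 called gene of 33 collagen and matrix genes, whose median was 0.14, and -0.04 without the lymphocyte-rich arrays. Fibroblast markers had no call in 13, with 12 positive and a median of 0.33. That median was 0.07 without the lymphocyte-rich arrays, and 0.15, -0.16, 0.25 and 1.13 in the 4 runs. The set without the lymphocyte-rich arrays lacks run 4, the run with the median of 1.13. B lymphocyte markers had no call in 10, all 10 negative, a median of -0.50, and -0.02 without the high arrays. The B lymphocyte medians in the 4 runs were 0.485, -1.102, -0.521 and -1.081, so run 1 had the opposite sign. The high arrays were picked by the mean of 9 of these genes, so the median of -0.02 follows largely from that choice. The summed signal of the markers had a lowest value of 2978.4, a median of 3628.6 and a highest of 14351.2 in CR+EX glands, against 2637.9, 5913.6 and 25295.3 in AL glands. Adipocyte markers had no call in 12, a median of 0.09 and median sums of 134857.8 in CR+EX glands and 135097.2 in AL glands. Skeletal muscle markers had no call in 22 and a median of 0.03.

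The other falls were moderate. Ptpn1 encodes PTP1B, a phosphatase that dampens insulin and leptin receptor signalling. It had 527.4, 628.7 and 722.6 (lowest, median and highest signal) in CR+EX glands against 770.1, 941.7 and 1993.8 in AL glands, with no overlap, and fell 1.58-fold (-0.66 ± 0.15, adjusted p = 0.030). Pkp3, a plakophilin of desmosomes, had 140.3, 195.0 and 238.8 in CR+EX glands against 244.5, 305.3 and 393.4 in AL glands, also with no overlap, and fell 1.55-fold (-0.63 ± 0.13, adjusted p = 0.013). With Abca8a and Mrps22 these were the 4 called genes whose groups did not overlap, out of 6 such genes in all (0.0646%). Ptpn1 and Pkp3 were named after their values were seen, and neither passed when the probe sets of a gene were averaged (-0.43 with adjusted p = 0.062 for Ptpn1, -0.54 with adjusted p = 0.21 for Pkp3).

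Rasd2, a small GTPase of the Ras family, fell 1.89-fold (-0.92 ± 0.23, adjusted p = 0.049), Fam102a 1.72-fold (-0.78 ± 0.18, adjusted p = 0.028) and Dgkz, a diacylglycerol kinase, 1.64-fold (-0.72 ± 0.17, adjusted p = 0.032). Pmepa1, an inhibitor of TGF-beta signalling, had 443.4, 849.7 and 1258.2 in CR+EX glands against 1064.5, 1293 and 1606.1 in AL glands and fell 1.63-fold (-0.71 ± 0.15, adjusted p = 0.013). Below every AL gland lay 8 of 9 CR+EX glands. Parp9, an interferon-induced ADP-ribosyltransferase partner, fell by 0.66 ± 0.15 (adjusted p = 0.027), Mtss1, which bends membranes at the cell cortex, by 0.66 ± 0.16 (adjusted p = 0.037) and 2410002F23Rik by 0.68 ± 0.15 (adjusted p = 0.018). With probe sets averaged 4 of these genes missed the threshold: Pmepa1 at -0.47 (adjusted p = 0.14), Mtss1 at -0.32 (adjusted p = 0.14), Rasd2 at -0.74 (adjusted p = 0.065) and Dgkz at -0.68 (adjusted p = 0.11). The interferon list, which does not hold Parp9, had no call in 11 genes and a median of -0.20. Called genes named after their values were seen included the chromatin remodellers Chd8 (-0.57 ± 0.12, adjusted p = 0.013) and Bptf (-0.52 ± 0.12, adjusted p = 0.028), the kinase Tnk2 (-0.64 ± 0.15, adjusted p = 0.032; 0.17 with probe sets averaged) and the receptor adaptor Arrb1 (-0.54 ± 0.11, adjusted p = 0.013).

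**Figure D3:**
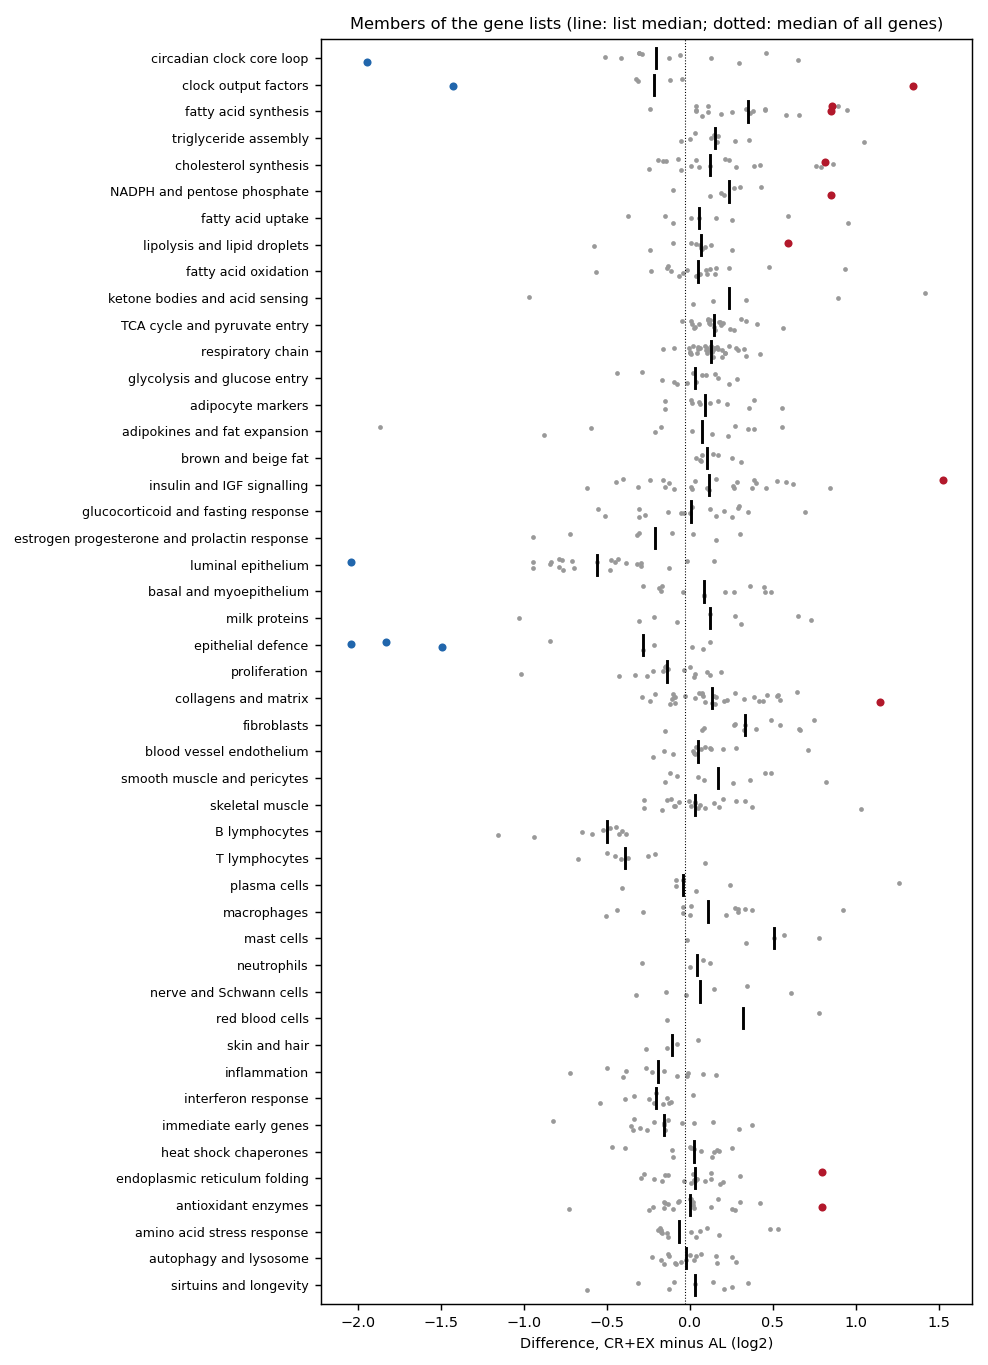
Log2 differences between CR+EX and AL glands for the tested members of the 47 gene lists, 1 list per line, with called members in red (higher) or blue (lower), the list median as a black line and the median of all genes, -0.03, as a dotted line. Fatty acid synthesis (median 0.35) lies to the right and luminal epithelium (-0.56) and B lymphocytes (-0.50) lie to the left of the dotted line, and 35 lists hold no called gene.

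The difference between CR+EX and AL is, for each gene, the sum of a diet part (restriction averaged over both wheel states) and a wheel part (wheel averaged over both diets). For 57 of the 58 called genes the diet part was the larger, and its median share of the difference was 80.8%. The diet part was called for 56 of the 58, beside 813 of all genes (8.75%), and the wheel part for none, beside 0 of 9294 genes (0%). In the wheel contrast limma gave 266 genes (2.86%) at an unadjusted p under 0.05, 12 of them among the 58. The wheel part had the sign of the whole difference in 48 of the 58, and in 62.9% of all genes. Since the 58 were called on a sum of both parts from the same arrays, these counts describe them and test nothing further.

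The share differed from gene to gene. For Enpep the diet part was 1.41 and the wheel part 0.01 ± 0.24, for Defb1 -1.86 and 0.03 ± 0.32, and for Dbp -1.34 and -0.09 ± 0.18. In the genes of fat synthesis the wheel part had the opposite sign: -0.15 ± 0.12 for Elovl6 and -0.17 ± 0.14 for Me1, beside diet parts of 1.01 and 1.02. The fatty acid synthesis list as a whole had a median diet part of 0.40 and a median wheel part of -0.07. In both wheel parts the error was close to the size of the value.

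Ly6d had the largest wheel part of the 58, -0.67 ± 0.23 (unadjusted p = 0.0069, adjusted p = 1), beside a diet part of -1.37. Its median signals were 506.2 in CR+EX, 676.8 in CR, 1117.6 in AL+EX and 1846 in AL glands, so each intervention alone lay between both and neither. Spag7, named after its values were seen, was the 1 gene whose wheel part, 0.32 ± 0.09 (unadjusted p = 0.0011), exceeded its diet part, 0.19. Its medians were 571.7 in CR+EX, 512.1 in CR, 528.2 in AL+EX and 362.1 in AL glands. Mgp had a wheel part of 0.40 ± 0.17 beside a diet part of 0.74, with medians of 1144.8, 1014.6, 972.9 and 476.9 in the same order of groups. AL glands were the low group for Mgp and Spag7, and the other 3 groups lay near each other. Over all genes the smallest p-values of the wheel contrast were those of Wdr77 (0.58 ± 0.15), Slc22a8 (-0.48 ± 0.13) and Tph1 (0.71 ± 0.20), none of which passed.

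**Figure D4:**
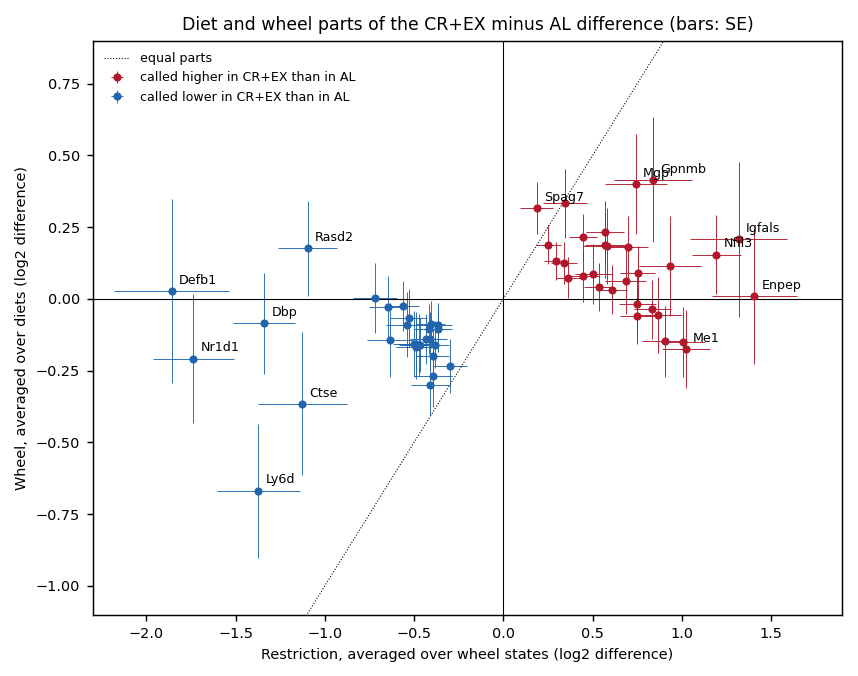
Diet part (x axis) and wheel part (y axis) of the log2 difference between CR+EX and AL glands for the 58 called genes, with standard errors as bars and a dotted line where both parts are equal. The points spread along the x axis from -1.86 to 1.41, while on the y axis Ly6d at -0.67 is the farthest from 0.

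Against restriction alone, CR+EX glands had 0 called genes (0%), with 83 genes (0.893%) at an unadjusted p under 0.05 in limma. The median size of the difference over the 58 genes was 0.12 between CR+EX and CR glands, beside 0.68 between CR+EX and AL glands. These comparisons share the CR+EX arrays. Nfil3 had medians of 392.5 in CR+EX, 369.4 in CR, 171.8 in AL+EX and 144.1 in AL glands, and Nr1d1 had 176.5, 260.1, 762.1 and 842.3 in that order. Elovl6 had 17716.1, 17538.8, 8189.3 and 9203.5. For these 3 genes both restricted groups lay on one side and both ad libitum groups on the other.

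The interaction asks whether the difference with both interventions departed from the sum of the differences with each alone. It was called for 0 of 9294 genes (0%), with 295 (3.17%) at an unadjusted p under 0.05 in limma. Among the 58, Pmepa1 (interaction 0.59) and Parp9 (0.50) were under 0.05 before adjustment. Both were near their CR+EX level in all groups but AL: Pmepa1 had medians of 849.7 in CR+EX, 771.4 in CR, 776.4 in AL+EX and 1293 in AL glands, and Parp9 had 430.0, 407.5, 432.0 and 686.2. The smallest p-values over all genes were those of Sars, a seryl-tRNA synthetase (-0.75), Cyp8b1, a sterol hydroxylase (-1.02), and 2610524H06Rik (0.73), none of which passed. Sars had medians of 1021 in CR+EX, 1176.9 in CR, 1186.9 in AL+EX and 861.6 in AL glands.

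Within the 4 runs of animal numbers the called genes kept their direction, with 1 exception. The difference had the same sign in all 4 runs for 57 of the 58, beside 21.2% of uncalled genes, and Brd2, a bromodomain protein named after its values were seen, was positive in run 4 (0.09) and did not pass with probe sets averaged (adjusted p = 0.10). That share is raised because the calls come from the same arrays. Nfil3 differed by 1.75, 1.04, 1.74 and 0.91 in runs 1 to 4 and Nr1d1 by -2.08, -1.07, -2.24 and -2.78. Elovl6 differed by 0.54, 0.56, 1.19 and 1.35, and Me1 by 0.42, 0.61, 1.21 and 1.22. The sizes differed between runs, as for Defb1, with -1.32, -1.56, -3.23 and -0.79.

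**Figure D5:**
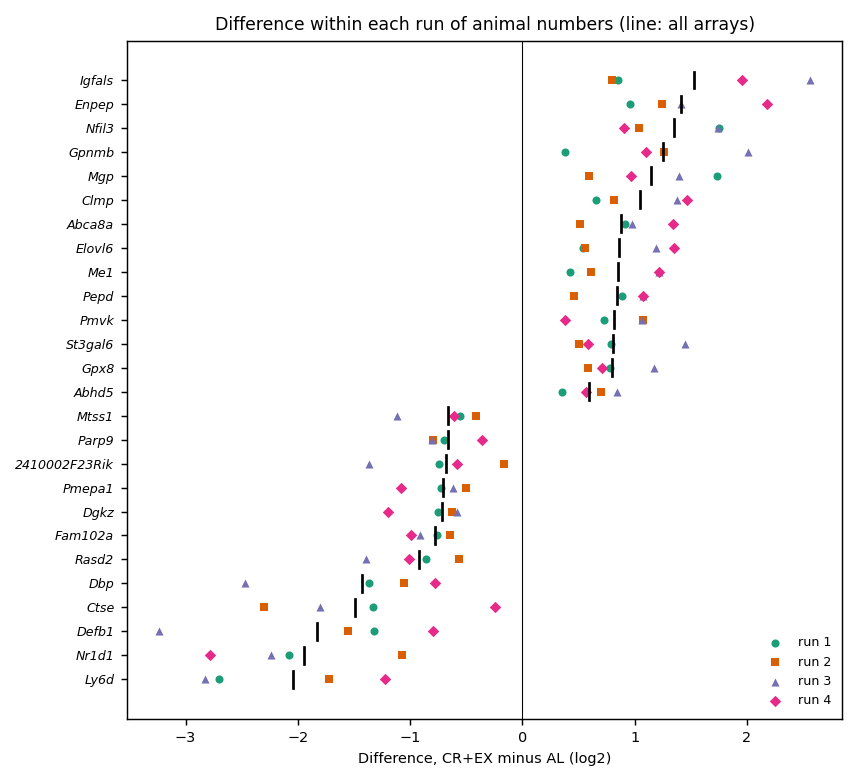
Log2 difference between the CR+EX and AL arrays within each of the 4 runs of animal numbers (symbols) and over all arrays (black line) for the called genes that the naming rule selected. For each gene drawn, the 4 symbols lie on one side of 0.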

How the data were processed

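The values were Affymetrix signal intensities on a linear scale, as deposited by the authors in 1 table of 22690 probe sets and 37 arrays, with no column of any other sample. Per the submitters' processing notes the software was GCOS version 1. No source used here gives the signal algorithm or any filter. Means after trimming 2% at each end were equal, so the authors had scaled the intensity values before they were deposited, and nothing was rescaled here. Arrays carry no counts, so the number of animals limits the precision. Maximum signals were 21249.4 to 53054.8 in CR+EX arrays and 20689.5 to 65626 in AL arrays.

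Gene names came from the platform's annotation, updated through Entrez IDs: 20380 probe sets named 1 gene, 691 several and 1555 none, 64 were controls, and 29 had an Entrez ID with no match and kept their symbol. Each of 12393 genes was represented by its brightest probe set, and the dimmest 25%, with a mean log2 value under 6.71 (signal 88.7), were dropped. Of the 58 called genes 30 have 1 probe set. For 26 of the other 28 all probe sets had 1 direction, and Lipg and Tcf20 were the exceptions.

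limma 3.58.1 in R 4.3.3 fitted 4 group means to log2(signal + 16) of all 37 arrays, with 33 residual degrees of freedom, a median residual SD of 0.339 and empirical Bayes variances that follow the mean. Tests were two-sided, adjusted by Benjamini and Hochberg over 9294 genes, and called under 0.05. Values after ± are standard errors of that fit. Differences are on the log2(signal + 16) scale and understate those of dim genes. The exact permutation test of a difference in means used all 92378 regroupings of the 19 arrays. Each sample is an animal by its title. The code was tested on simulated data.

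The members, gene lists and rules were chosen with earlier results of these data known. The naming rule took the 12 largest called differences in each direction, called members of each list, 15 fixed genes, and the 3 smallest p-values of the wheel and interaction contrasts. Other genes are named as chosen after their values were seen. Runs are animal numbers divided every 24, and the labels do not call them batches. Alternatives were other pseudocounts, filters, scalings and probe set rules, the run as a block, a B lymphocyte covariate, array subsets and each array left out. Replicate numbers were given here in listed order within a group and pair no animals, since the titles hold only animal numbers, each of them used once. The blocked fit on only 19 arrays, the blocked fit without high Gapdh arrays, and the permutation of every gene were added after seeing the data.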

Additional observations from a re-analysis of the deposited data

Results flagged for a closer look

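The CR+EX and AL values of the 41 genes that the naming rule selected were searched for single arrays far from the rest of their group by Dixon's criterion at the 95% level, 82 sets of values in all, of which chance alone picks about 1 in 20. There were 3 such arrays, each in the CR+EX group and each of a different animal, and none of them was lymphocyte-rich or had a high Gapdh ratio. For Defb1, CR+EX replicate 5 stood at 9.47 on the log2 scale above the next CR+EX gland at 7.93, a gap of 0.534 of the group's range. For Parp9, CR+EX replicate 6 stood at 8.31 below the next at 8.68, a gap of 0.502 of the range. For Slc22a8, CR+EX replicate 3 stood at 5.48 below the next at 6.50, a gap of 0.576 of the range.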

How the results depend on the processing

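Of the genes tested, 0.624% were called (0.323% higher and 0.301% lower in CR+EX glands). The run as a block gave 3.73% (1.99% higher, 1.74% lower), that block with only the 19 arrays 3.14% (1.66%, 1.48%), and that block without the high Gapdh arrays 1.94% (1.03%, 0.904%). A covariate for the B lymphocyte mean gave 1.33% (0.56%, 0.775%). Leaving out lymphocyte-rich arrays gave 0.0323% (0.0108%, 0.0215%), leaving out high Gapdh arrays 0.194% (0.118%, 0.0753%), and the exact permutation 0.334% (0.14%, 0.194%). Genes called lower made up 0.694% with the dimmest 50% left out, 0.129% after median centring and 0.183% with probe sets averaged. Fits without 1 compared array gave 0.28% to 1.13% (0.183% to 0.516% higher, 0.0968% to 0.613% lower). They gave 34 genes without AL replicate 3, and 30, 37, 105 and 26 without CR+EX replicates 3, 4, 5 and 6. The other 14 were within 1.5 times of 58. The cause was not tested. Pseudocounts of 1 and 64, no filter, quantile normalization, only the 19 arrays and no trend gave 47 to 63 genes. The wheel and interaction contrasts gave 0 genes in each fit that was run. Under these settings no called gene changed sign: 684 values passed the threshold and 179 did not, and 833 and 269 with 1 array left out. Genes called in fewer than 10 of those 19 fits were Abhd5, Anxa9, Brd2, Defb1, Dgkz, Gpnmb, Igfals, Ms4a4d, Mtss1, Rasd2, Spag7, Tcf20, Trim8 and Ttc39c. Differences near 0 changed sign. Without lymphocyte-rich arrays Adipoq was -0.047 and Fasn -0.011, and with probe sets averaged Scd1 was 0.047. With 1 array left out Adipoq lay between -0.046 and 0.092 and Sfrp5 between -0.006 and 0.366. No paired analysis was possible because the replicate numbers, given here in the listed order of the arrays, only name animals and pair none across groups.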

Other observations

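Several gene groups not described above had no called member between CR+EX and AL glands. Over all genes tested 4137 of 9294 had a positive difference and 5157 a negative one. Mast cell markers had 4 of 5 tested genes positive and a median log2 difference of 0.51. Their medians were 0.28, 0.07, 0.76 and 0.92 in the 4 runs. The list median was 0.28 without the lymphocyte-rich arrays, which include all of run 4. Their summed signal had a lowest value of 1510, a median of 1711.9 and a highest of 2312.1 in CR+EX glands, against 960.8, 1272 and 2638.4 in AL glands, so the ranges overlapped. Genes of proliferation had 10 of 16 negative and a median of -0.14, which was -0.02 without the lymphocyte-rich arrays and -0.28 without the arrays with a high Gapdh ratio. The proliferation medians in the 4 runs were 0.30, -0.37, -0.13 and -0.13. The value of -0.28 leaves out every CR+EX and AL array of run 1, the run with the positive median. Inflammation genes had 10 of 12 negative and a median of -0.19. Milk protein genes had 5 of 9 positive and a median of 0.12, which was -0.06 and 0.07 in those smaller sets. Near the threshold, and named after their values were seen, were Tsc22d3, a glucocorticoid-induced leucine zipper gene (0.69 ± 0.18, adjusted p = 0.056), Hp, which encodes the haemoglobin binder haptoglobin (-0.72 ± 0.19, adjusted p = 0.060), and Igf2r, the receptor that clears insulin-like growth factor 2 (-0.40 ± 0.10, adjusted p = 0.056).

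Called genes outside every list, also named after their values were seen, included Ncoa4, the receptor that delivers ferritin to autophagy. It had a lowest signal of 2633.8, a median of 3030.4 and a highest of 3739.7 in CR+EX glands, against 1639, 2140.2 and 2807.1 in AL glands, and rose 1.49-fold (0.57 ± 0.12, adjusted p = 0.011). Zfyve21, a protein of focal adhesions, had 665.9, 852.1 and 1344.8 in CR+EX glands against 419.6, 536.0 and 772.3 in AL glands, and rose 1.58-fold (0.66 ± 0.11, adjusted p = 0.0014). The groups overlapped for each gene. Adhfe1, a mitochondrial transhydrogenase of hydroxy acids, rose by 0.44 ± 0.10 (adjusted p = 0.027), and Ddo, the D-aspartate oxidase, by 0.53 ± 0.13 (adjusted p = 0.034).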
